A study of Homo sapiens with 18 samples.

Results

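Dimethylation of histone H3 at lysine 9 (H3K9me2) was compared between LNCaP prostate cancer lines that express EHMT1 with lysine 450 replaced by arginine (K450R) or the wild-type protein (WT). The members are all peaks of the deposited H3K9me2 list of each line, 815 for K450R and 784 for WT, together 1599 of the 22458 peaks in the 9 lists of the series. A peak is called shared when it overlaps a peak of the other line by at least 1 bp, and K450R-only or WT-only otherwise. LNCaP is an established, androgen-responsive human prostate cancer line. Both lines carry a doxycycline-regulated construct for V5-tagged EHMT1, labelled LNCaP-tet-EHMT1, and both were treated with 0.5 µg/ml doxycycline for 2 days, so the construct and the drug are common to both groups. The cells' own EHMT1 gene is not described as removed, and whether a line is 1 clone or a mixture is not given in the sources used here. Each group had 2 replicates but 1 peak list, which may stem from both replicates together or from 1 alone. Hence no value below has a replicate error, no test between the lines was possible, and the intervals given cover counting error only.

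EHMT1 (also called GLP) and its partner EHMT2 (G9a) are the enzymes that place most mono- and dimethyl marks on lysine 9 of histone H3. The mark is read by chromatin proteins that keep genes silent, and it covers broad domains of the genome as well as the repeats around centromeres. A narrow peak list, as here, holds sharp local maxima and not such broad domains. Lysine 450 of EHMT1 and the lysine next to it were found methylated in the study, and the H3K9me2 lists address whether blocking methylation at lysine 450 goes along with another distribution of the mark.

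One of the strongest shared peaks, which holds a centromere string, is shown together with peaks found in 1 line only. The sequences are those of the reference (GRCh37, the same coordinates as hg19), plus strand, 5′ to 3′, and capitals mark the strings searched for: at least 3 tandem copies of GGAAT on either strand, the unit of human satellites II and III, and TTCGNNNNANNCGGG on either strand, the core of the box bound by the centromere protein CENP-B. The window around the summit of a shared peak on chromosome 9 (chr9:69711032-69711232) belongs to the second shared peak when pairs are ranked by the lower −log10 q of both lines.
Chromosome 9, shared: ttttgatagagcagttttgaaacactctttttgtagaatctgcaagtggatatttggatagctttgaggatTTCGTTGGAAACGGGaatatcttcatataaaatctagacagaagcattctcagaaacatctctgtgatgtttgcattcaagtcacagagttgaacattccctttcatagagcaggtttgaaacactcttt

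Next come line-only peaks. The first is the K450R-only peak with the highest −log10 q (chr2:133026727-133026853), the next a K450R-only peak within a satellite array (chr10:42356968-42357102), and the following pair the K450R-only peaks in the genes MICAL3 (chr22:18360269-18360379) and CNTNAP2 (chr7:148028669-148028832). The WT-only peaks lie in PCBD2 (chr5:134260192-134260319), beside the centromere of chromosome 7 (chr7:61980498-61980599) and in FOXA1 (chr14:38061696-38061823).
Chromosome 2, K450R-only: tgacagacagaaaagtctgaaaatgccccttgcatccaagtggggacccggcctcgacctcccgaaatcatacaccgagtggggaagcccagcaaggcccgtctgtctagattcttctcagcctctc
Chromosome 10, K450R-only: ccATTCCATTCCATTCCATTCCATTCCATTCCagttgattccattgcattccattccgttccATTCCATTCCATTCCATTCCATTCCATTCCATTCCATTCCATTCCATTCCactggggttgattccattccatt
MICAL3 intron 16, K450R-only: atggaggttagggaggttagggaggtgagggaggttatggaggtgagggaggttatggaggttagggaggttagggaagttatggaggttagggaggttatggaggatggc
CNTNAP2 intron 21, K450R-only: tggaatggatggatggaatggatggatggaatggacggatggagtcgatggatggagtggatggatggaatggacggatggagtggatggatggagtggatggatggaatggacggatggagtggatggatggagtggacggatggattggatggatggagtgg
PCBD2 intron 2, WT-only: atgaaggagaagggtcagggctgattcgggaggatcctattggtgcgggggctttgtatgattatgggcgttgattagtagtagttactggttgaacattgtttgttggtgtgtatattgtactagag
Chromosome 7, WT-only: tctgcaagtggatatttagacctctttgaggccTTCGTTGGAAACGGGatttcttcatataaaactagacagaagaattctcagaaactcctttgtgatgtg
FOXA1 exon 2, WT-only: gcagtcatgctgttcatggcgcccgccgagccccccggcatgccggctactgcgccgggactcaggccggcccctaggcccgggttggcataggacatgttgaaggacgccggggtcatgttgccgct
The MICAL3 and CNTNAP2 peaks are made of short units that recur along the peak, whereas the FOXA1 peak is GC-rich coding sequence (69.5% GC) with no such unit.

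The lists of both lines held mostly the same regions. Of the K450R peaks 607 of 815 (74.5%, 95% Wilson interval 71.4% to 77.4%) were shared, and of the WT peaks 606 of 784 (77.3%, 74.2% to 80.1%). Line-only were 208 K450R peaks (25.5%) and 178 WT peaks (22.7%). Merged into 986 regions, 600 held peaks of both lines (60.9%), 208 a K450R peak alone (21.1%) and 178 a WT peak alone (18.1%). The number of peaks differed little, with 1.04 K450R peaks per WT peak (95% Poisson interval 0.942 to 1.15).

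Line-only peaks were weak ones. For each peak the reads at the summit were recovered as a whole number from the deposited values, and the fold enrichment is the summit over a local background. That background was taken to come from the same library, an assumption on which the depths rest, since the use of an input control is not stated in the sources used here. Shared peaks had a median of 41 summit reads in the K450R list (quartiles 23 and 72) and of 41 in the WT list (24 and 72.8), while K450R-only peaks had 16 (12 and 27) and WT-only peaks 18 (14 and 32). The median fold enrichment was 7.46 for shared and 6.06 for K450R-only peaks, and 7.59 for shared and 6.004 for WT-only peaks. Among K450R peaks with a −log10 q (the peak caller's false discovery value, higher being stronger) under 5, 59 of 71 were line-only (83.1%), and among WT peaks 42 of 57 (73.7%). From 10 to 20 the line-only share was 19.1% (56 of 293) for K450R and 18.3% (53 of 290) for WT. From 20 to 40 only 1 of 160 K450R peaks and 1 of 183 WT peaks had no counterpart. At 40 or more none of 89 K450R and none of 74 WT peaks was line-only, for which the upper limits of the intervals are 4.14% and 4.93%.

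**Figure D1:**
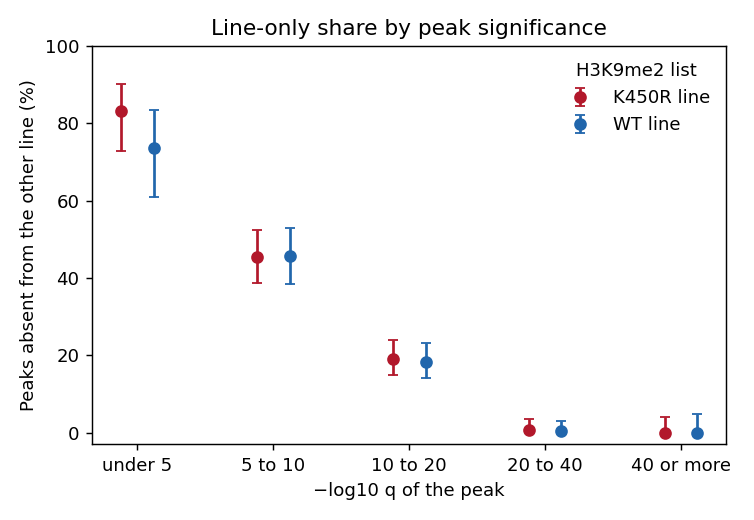
Share of H3K9me2 peaks with no overlapping peak in the other line (y axis, percent) by −log10 q of the peak (x axis), for the K450R list (red) and the WT list (blue), with 95% Wilson intervals. The share falls from 83.1% and 73.7% in the weakest class to 0 of 89 and 0 of 74 in the strongest, and the intervals of both lines overlap in every class.

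A line-only peak was often close to a peak of the other line. Of the K450R-only peaks 61 of 208 (29.3%) lay within 1 kb of a WT peak and 118 (56.7%) within 10 kb, and of the WT-only peaks 62 of 178 (34.8%) lay within 1 kb of a K450R peak and 108 (60.7%) within 10 kb. More than 1 Mb from any peak of the other line were 44 K450R-only (21.2%) and 32 WT-only peaks (17.98%). Many were also found by another antibody or in another line. Of the K450R-only peaks 140 (67.3%) overlapped an H3K9me2 peak of the line with the K451R mutant. A peak of endogenous EHMT1 in parental LNCaP cells was overlapped by 119 (57.2%). Of the WT-only peaks the numbers were 107 (60.1%) and 111 (62.4%). These shares were lower than over all peaks, with 89.1% and 86.1% for K450R and 88.3% and 88.3% for WT. H3K9me2 of the line with both lysines replaced overlapped 43.8% of K450R-only and 35.4% of WT-only peaks, against 76.7% and 75.9% of all peaks. In none of the other 8 lists of the series were 27 K450R-only (13.0%) and 25 WT-only peaks (14.0%). By contrast, 413 of the 607 shared K450R peaks (68.0%) were in all 9 lists.

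The lists differed in depth and in their weakest call. The reads behind each list, estimated from its genome-wide background, were 14.0 M (M, 1e6) for K450R and 17.9 M for WT, a ratio of 0.780. The lowest −log10 p in the list was 5.42 for K450R and 5.99 for WT. Had a K450R-only site held the same depth-scaled reads in the WT library, its summit would have fallen under the WT limit at 1 of 208 sites, and the same held for 5 of 178 WT-only sites in the K450R library. With the lower bound of the 95% Poisson interval of the summit reads in place of the reads themselves, the limit of the other line was reached at 115 of 208 K450R-only sites (55.3%) and at 58 of 178 WT-only sites (32.6%). With no scaling by depth these numbers were 83 (39.9%) and 84 (47.2%). Which sites fall short of that limit thus depends on the scaling. All these counts use reads of the list in which the site was called, which are selected to be high. They are hence a description, and the part of depth in the line-only calls was not tested.

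At the shared peaks the summit height was nearly the same in both lines. The 600 pairs of best-matching peaks had a median ratio of K450R to WT summit reads of 0.986 as counted. Scaled by the estimated depth, the median ratio was 1.26 (quartiles 1.15 and 1.36, lowest 0.598, highest 2.17), so the direction depends on the scaling. The local background around the same peaks, scaled in the same way, had a median ratio of 1.23. The fold enrichment, in which both enter, had a median ratio of 1.02. Across the 600 pairs the summit reads ranked alike (Spearman's rho 0.972, as a description, since both lists share the repeats and their mappability). The summits lay a median of 6 bp apart, and 543 pairs (90.5%) had them within 50 bp. A depth-scaled ratio of at least 1.5 was found at 73 pairs (12.2%) and one of 1/1.5 or less at 1 pair (0.167%). As counted, a ratio of at least 1.5 was found at 6 pairs and one of 1/1.5 or less at 20 pairs, with 315 pairs lower and 235 higher in the K450R line, so the split turns with the scaling. The counting interval of the scaled ratio lay above 1 for 70 pairs and below 1 for 1 pair, counts that rest on the scaling as well. The pair below 1, at chr2:92296241-92296494, had its summits 541 bp apart, so its reads were counted at different positions.

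**Figure D2:**
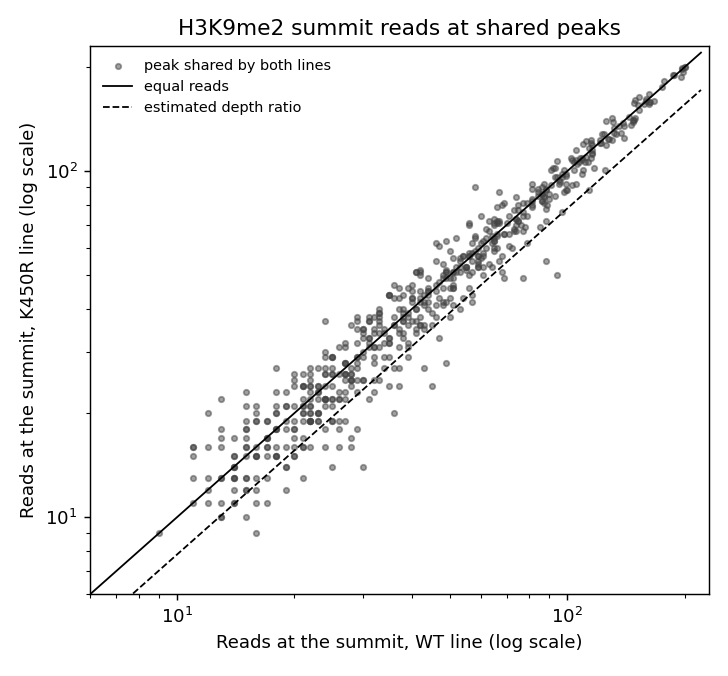
Reads at the peak summit in the WT line (x axis, log scale) and in the K450R line (y axis, log scale) for the 600 pairs of shared H3K9me2 peaks, 1 point per pair. The solid line marks equal reads and the dashed line the estimated depth ratio of 0.780. Most points follow the solid line and lie above the dashed one, and at the upper right both lines reach the maximum of 200 reads.

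The highest shared peaks had nearly equal values in both lines. SENP5 encodes a protease that removes SUMO from proteins, and its peak in intron 2 (chr3:196625593-196625815), the first in either list by −log10 q, had 135 summit reads and a fold of 40.2 in the K450R line and 136 reads and a fold of 39.8 in the WT line. The chromosome 9 peak with a CENP-B string had 136 and 146 reads, and no stretch of 51 bases in its summit window was unique in the genome. A peak on chromosome 9 at chr9:44070639-44070831 had a fold of 39.5 and 34.5, and one beside the centromere of chromosome 1 at chr1:121484055-121485437 had 200 reads in each, the highest number that the peak calling allowed. These peaks were found in all 9 lists, and only 8 pairs of the 600 had 190 or more reads in a line. The maximum of 200 limits how far counts of this height can differ, so near-equal reads need not mean equal amounts of the mark.

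Shared peaks inside coding genes followed the same pattern. MAN1A1, a mannosidase of the Golgi, had a peak in intron 6 with 41 reads (fold 23.3) in the K450R line and 43 reads (fold 22.4) in the WT line. HFM1, a helicase of meiotic recombination, had 36 and 39 reads in intron 4. COL23A1, a transmembrane collagen, had 31 and 39 reads in intron 1, and PARN, a ribonuclease that shortens poly(A) tails, had 37 and 31 reads in intron 21. As counted, PARN was higher in the K450R line and the others in the WT line, while scaled by depth the ratio was 1.22 for MAN1A1, 1.18 for HFM1, 1.02 for COL23A1 and 1.53 for PARN, with counting intervals that all include 1. All 4 peaks were found in 9 lists.

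The widest ratios at shared peaks stood on 12 to 94 reads in the WT line. Over all chromosomes the highest depth-scaled ratio, 2.17, was found on Y (chrY:13651298-13651441), with 22 reads in the K450R and 13 in the WT line, and the third on Y as well (chrY:13485355-13485769), with 90 and 58 reads, a ratio of 1.99 and a counting interval of 1.41 to 2.82. On chromosomes 1 to 22 and X the highest was found on chromosome 21, 129 kb from an assembly gap (chr21:10827082-10827204), in a window with GGAAT copies, with 20 and 12 reads. It was followed there by peaks at chr14:88237557-88237849 (37 and 24 reads), chr13:28033885-28034091 (23 and 15) and chr10:98561310-98561568 (27 and 18). The lowest ratio was found on chromosome 13 (chr13:110076486-110076685), with 14 reads in the K450R and 30 in the WT line. Next came peaks beside centromeric gaps at chr2:92296241-92296494 (50 and 94 reads), chr5:49440295-49440394 (24 and 45) and chr7:61990611-61990717 (20 and 36). The summits of the chromosome 2 pair lay 541 bp apart, so its reads were counted at different positions. These pairs were picked by their ratio, so the values are a description.

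H3K9me2 peaks of either line gathered at centromeres and other gaps of the assembly. Most such regions were called with other antibodies too, and 583 of the 607 shared K450R peaks (96.0%) overlapped a peak of endogenous EHMT1 in parental cells. The part of the mark itself in this location was not tested. Of the shared K450R peaks on chromosomes 1 to 22, X and Y, 516 of 603 (85.6%) lay within 1 Mb of an assembly gap of at least 10 kb, against 11.0% of all sequenced bases. The share was 152 of 208 (73.1%, 66.7% to 78.6%) for K450R-only peaks and 138 of 175 (78.9%, 72.2% to 84.3%) for WT-only peaks. More than 5 Mb from a gap were 44 of 603 shared (7.30%), 29 of 208 K450R-only (13.9%) and 19 of 175 WT-only peaks (10.9%). The interval of the K450R-only share lay below that of the shared peaks (82.5% to 88.2%), while that of the WT-only share overlapped both. Peaks gather in clusters and are not independent, so these intervals may be too narrow and are a description.

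**Figure D3:**
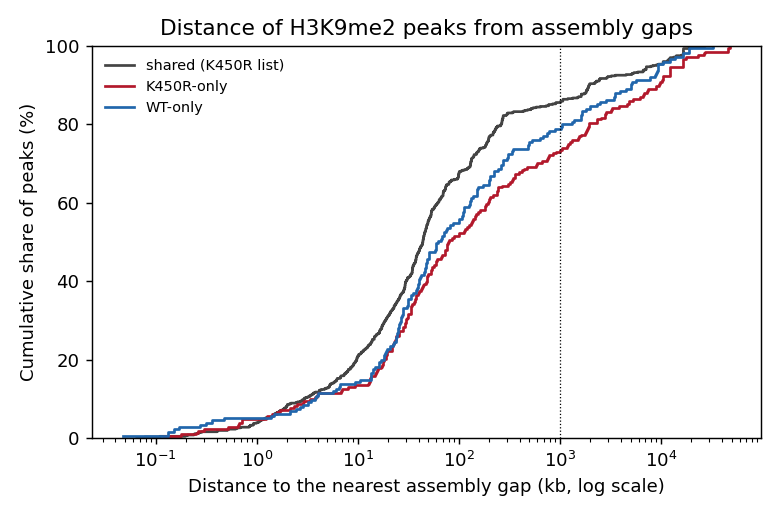
Cumulative share of H3K9me2 peaks (y axis, percent) by distance to the nearest assembly gap of at least 10 kb (x axis, kb, log scale), for shared peaks of the K450R list (grey), K450R-only (red) and WT-only peaks (blue). The dotted line marks 1 Mb, within which lie 85.6% of shared, 73.1% of K450R-only and 78.9% of WT-only peaks.

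By chromosome, the K450R and WT lists held 81 and 71 peaks on chromosome 10, 76 and 68 on chromosome 2, 71 and 67 on Y, 64 and 59 on 16 and 56 and 50 on 4. Chromosome 10 had 13 K450R-only peaks (16.0% of its K450R peaks, 9.63% to 25.5%) and 3 WT-only peaks (4.23%, 1.45% to 11.7%), and chromosome 22 had 8 and 2. Chromosome 6 had no K450R-only and 3 WT-only peaks. On chromosomes 3, 12 and 15 the numbers of line-only peaks were equal in both lines, at 6, 5 and 4. With so many chromosomes looked at, such differences on small counts are given as values only.

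**Figure D4:**
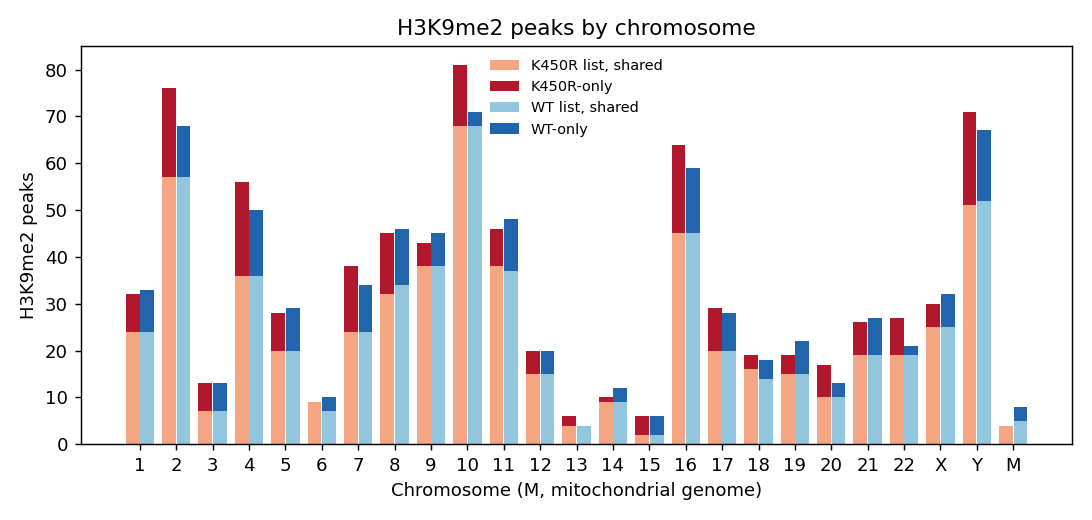
Number of H3K9me2 peaks (y axis) on each chromosome (x axis) in the K450R list (left bars) and the WT list (right bars), split into shared (pale) and line-only peaks (dark). Chromosome 10 has the most peaks, 81 and 71, and the line-only parts are 13 and 3 there.

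Peaks no more than 500 kb apart were joined into 214 clusters. The 10 largest held 38.1% of K450R and 39.7% of WT peaks. The largest spanned chr10:42356122-42817946, next to the centromere, with 56 K450R peaks (4 of them K450R-only) and 54 WT peaks (2 WT-only). It was followed by clusters on Y (chrY:13137763-13869900, 47 and 46 peaks) and 4 (chr4:49098162-49659784, 41 and 36 peaks). A cluster at chr16:33866651-34185857 held 19 K450R peaks, 9 of them K450R-only, and 12 WT peaks, 2 of them WT-only, and one at chrY:58822213-58997349 held 16 K450R peaks (9 K450R-only) and 12 WT peaks (5 WT-only). Both lines were present in 133 clusters. The 50 clusters with K450R peaks alone and the 31 with WT peaks alone held at most 2 peaks each, so that no cluster of 3 or more peaks belonged to 1 line.

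The strings marked in capitals above were frequent in all classes. Copies of GGAAT were found in 201-bp summit windows of 92 of 603 shared K450R peaks (15.3%), 32 of 208 K450R-only peaks (15.4%) and 17 of 175 WT-only peaks (9.71%), compared with 0.021% of all 14221866 windows of that length in the genome. The CENP-B string stood in 85 shared K450R peaks (14.1%), 80 of 601 shared WT peaks (13.3%), 12 K450R-only (5.77%) and 10 WT-only peaks (5.71%), against 0.0129% of windows. At least 3 copies of TTAGGG, the telomere repeat, were in 4 shared (0.663%), 4 K450R-only (1.92%) and 5 WT-only windows (2.86%), against 0.00135%. No window held 2 of these strings, and a match is a description of the window, not a site of binding. The median GC content of the windows was 39.3% for shared, 42.8% for K450R-only and 43.3% for WT-only peaks. No unique stretch of 51 bases, the read length, was found in 16.3% of shared, 13.0% of K450R-only and 15.4% of WT-only windows, where the place of a read is uncertain.

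Sequence related to the mitochondrial genome was more frequent among the peaks of the WT line. The mitochondrial genome held 4 K450R peaks, all shared, and 8 WT peaks, 3 of them WT-only. In the nuclear genome, peaks with at least 50% of their words of 15 bases in the mitochondrial genome, a limit chosen after the values were seen, were 10 of 175 WT-only peaks, 1 of 208 K450R-only peaks and 6 of 603 shared K450R peaks, against 0.000401% of 201-bp windows. Of the WT-only ones 3 lay side by side on chromosome 1, and others were the PCBD2 peak printed above (67.5% of words) and a peak in KIF5C (86.0%). The 6 shared pairs of this kind all had a lower summit in the K450R line as counted, compared with 305 (51.7%) of the 590 pairs outside this kind and the mitochondrial genome. Among them is the chromosome 13 pair with 14 and 30 reads. Scaled by depth, 4 of these 6 ratios lay under 1 with a median of 0.882, while 47 of the 590 did (7.97%). All 4 shared pairs on the mitochondrial genome were also lower in the K450R line as counted. Their scaled ratios ran from 0.801 to 1.006, with 2 under 1. The fold enrichment was lower in the K450R line at 4 of the 6 nuclear pairs and at 0 of the 4 mitochondrial ones. The local background at mitochondrial peaks ranged from 15.8 to 21.9 reads in the K450R line and from 27.5 to 38.7 in the WT line, and the part of the amount of mitochondrial DNA in these peaks was not tested.

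Coding genes were hit more often by line-only peaks than by shared ones. The summit lay in a protein-coding gene for 48 of 603 shared K450R peaks (7.96%, 6.06% to 10.4%), 41 of 208 K450R-only peaks (19.7%, 14.9% to 25.6%) and 30 of 175 WT-only peaks (17.1%, 12.3% to 23.4%), all below the 45.7% of sequenced bases in such genes. Line-only peaks were also weaker, whose part in this difference was not tested. With both lists limited to a −log10 q of at least 10 and the classes called anew, the shares were 6.71% (30 of 447), 9.68% (9 of 93) and 11.3% (11 of 97). A peak whose counterpart was under that limit counts as line-only there, so not all of these are line-only as defined above. Introns held 34 of the 48 shared, 32 of the 41 K450R-only and 25 of the 30 WT-only summits, and coding exons 4, 2 and 3. Within 1 kb of a coding transcription start lay 7 of 603 shared (1.16%), 7 of 208 K450R-only (3.37%) and 2 of 175 WT-only summits (1.14%), against 2.52% of sequenced bases. Of the 97 coding genes with a summit, 40 had peaks of both lines, 34 of K450R alone and 23 of WT alone.

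The strongest K450R-only peak lay outside genes on chromosome 2, 0.819 kb from a WT peak, with 61 reads at the summit, a fold of 6.08 and a −log10 q of 24.4. It was found in all lists of the series but H3K9me2 of the WT line. The next, at chr10:38881903-38882047, had 27 reads and a fold of 10.3, 4.96 kb from the nearest WT peak. The other 4 of the top 6 stood in GGAAT arrays of chromosomes 10 and 4, each within 1 kb of a WT peak. One of them had 122 reads over a background of 46.2, hence a fold of 2.61.

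The 41 K450R-only peaks in coding genes had a median of 11 summit reads and lay a median of 1207 kb from the nearest WT peak, with 7 within 10 kb, while the 167 elsewhere had 18 reads and lay 3.11 kb away. MICAL3, an enzyme that oxidises actin, had 16 reads and a fold of 10.2 in intron 16, 325 kb from the nearest WT peak. NOC4L, a protein of ribosome assembly, had 16 reads (fold 9.09) in intron 9, and CNTNAP2, a neuronal cell adhesion protein related to neurexins, had 16 reads (fold 8.99) in intron 21. PRKCZ, an atypical protein kinase C, had 15 reads (fold 8.89) in intron 4. Closer to WT peaks were those in ANKRD30BL (19 reads, 6.73 kb) and in ERC1 (16 reads, 0.149 kb). The ANKRD30BL peak overlapped a V5 peak of the WT line and none of the K450R line. Of the 41 peaks 36 overlapped no V5 peak of the WT or K450R line, the MICAL3, NOC4L, CNTNAP2, PRKCZ and ERC1 peaks among them, against 112 of the 167 elsewhere. EGFR, the receptor of epidermal growth factor, had a K450R-only peak with 11 reads, picked for its name after the values were seen. Close to coding starts the K450R-only peaks with the highest −log10 q belonged to CDC27, SNX16, MUC6, MBNL1 and LSM5, with 16, 12, 13, 8 and 8 reads. Starts of any coding transcript counted here, and the CDC27 and MUC6 peaks lay in intron 14 and coding exon 31. The MBNL1 and LSM5 peaks were in no other list of the series.

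Among WT-only peaks the highest −log10 q belonged to VPS13B, a lipid transfer protein of the Golgi, with 21 reads and a fold of 13.2 in intron 25 (chr8:100508069-100508209). The peak in intron 2 of PCBD2, which encodes a dehydratase that recycles a pterin cofactor, had 32 reads and a fold of 8.68 and lay 2.38 kb from a K450R peak. SIN3B, a scaffold of histone deacetylase complexes, had 23 reads and a fold of 10.3 in intron 14 (chr19:16985952-16986093), and KIF5C, a neuronal kinesin, had 17 reads and a fold of 10.8. The VPS13B, PCBD2, SIN3B and KIF5C peaks overlapped V5 peaks of both lines, while the next by −log10 q, in CDC27 (21 reads) and ERC1 (17 reads), overlapped neither. The PCBD2 and KIF5C peaks are among those with mitochondrial sequence given above. The VPS13B peak had 43.3% of its words in the mitochondrial genome. It was not counted among them because it lay under the limit of 50%, which was chosen after the values were seen. Of the 30 WT-only peaks in coding genes 5 overlapped V5 peaks of both lines and 23 of neither, against 22 and 99 of the 145 elsewhere in the nuclear genome. FUZ, a regulator of ciliogenesis, had a WT-only peak of 10 reads in coding exon 1, 0.137 kb from a start.

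Some genes held line-only peaks of both kinds. In intron 3 of ERC1, a scaffold of vesicle release sites, a K450R-only peak of 16 reads (chr12:1194665-1194783) and a WT-only peak of 17 reads (chr12:1194383-1194515) were 0.149 kb apart. PRKCA was the other of the 2 genes with peaks of both lines but no shared one. CDC27, a subunit of the anaphase-promoting complex with many near-identical copies in the genome, had 6 K450R peaks (2 K450R-only) and 5 WT peaks (1 WT-only). ANKRD30BL, in a duplicated region of chromosome 2, had 7 K450R peaks (2 K450R-only) and 5 WT peaks, all of them shared.

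Few genes of the chosen lists held a peak. Of 23 genes of the H3K9 methylation machinery only EHMT1 did, with a shared peak in intron 2 (chr9:140610501-140611004) of 31 reads and a fold of 12.5 in the K450R line and 33 reads and a fold of 12.7 in the WT line. A V5 peak of 9 reads was called there in the WT line and none in the K450R line. Of 30 genes of the REST complex and its neuronal targets only CNTNAP2 held one. Of 19 androgen receptor and luminal prostate genes only FOXA1 did, a pioneer factor of the androgen receptor, with WT-only peaks of 11 and 14 reads in coding exon 2 (chr14:38061135-38061341 and chr14:38061696-38061823). Of 33 annotated genes of pericentromeric duplicated families, ANKRD20A2P, ANKRD20A3P and ANKRD20A8P held shared peaks, and the first pair of names shares 1 peak with 65 and 64 reads. None of 29 KRAB zinc finger genes of chromosome 19 held one. Over all 20163 coding genes 107 (0.531%) had a peak in the gene or within 1 kb, so the lists with 1 gene each say little. PPP1R14C, HTR5A, STXBP3, LIPT2, FRMPD2 and MCM7, genes that the study follows, had no H3K9me2 peak in either line.

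The V5 lists hold the peaks called with an antibody to the tag of EHMT1 in the same lines. Whether the tagged protein was bound at each of them was not tested. Of the shared K450R peaks 496 of 607 (81.7%, 78.4% to 84.6%) overlapped a V5 peak of the K450R line, and of the shared WT peaks 498 of 606 (82.2%, 78.9% to 85.0%) a V5 peak of the WT line. The share was 39 of 208 (18.8%, 14.0% to 24.6%) for K450R-only peaks in their own line and 43 of 178 (24.2%, 18.5% to 30.9%) for WT-only peaks in theirs. With the 637 highest peaks of each list and the classes called anew among them, the line-only shares were 34.5% (40 of 116) and 41.5% (49 of 118). Shared peaks then stood at 86.6% and 86.9%. A peak whose counterpart was cut counts as line-only there, so the line-only peaks are not the same ones. The V5 list of the other line gave nearly the same shares, with 43 of 208 (20.7%) K450R-only peaks on V5 peaks of the WT line and 42 of 178 (23.6%) WT-only peaks on V5 peaks of the K450R line. H3K9me2 peaks under a V5 peak were also higher, with a median of 23 reads against 15 among K450R-only peaks and 21 against 18 among WT-only peaks. Without mitochondrial and mitochondrial-like peaks the share was 18.4% for K450R-only and 18.8% for WT-only peaks.

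**Figure D5:**
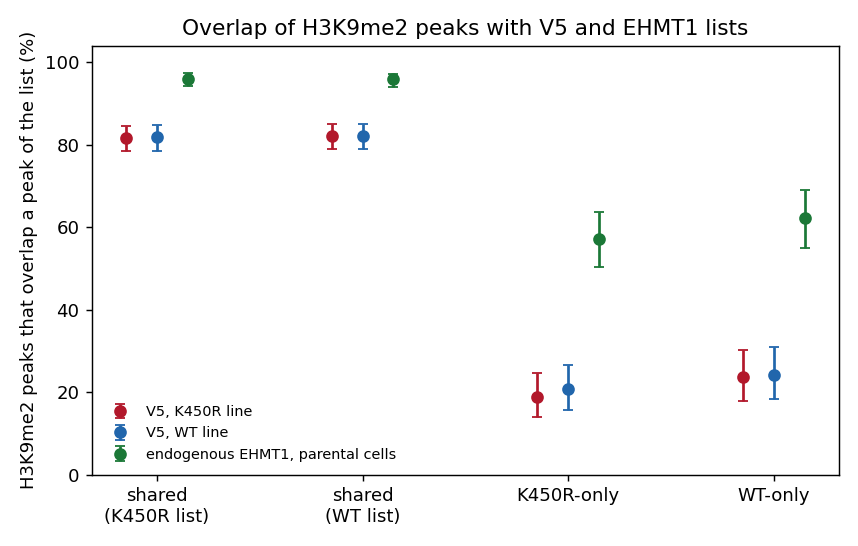
Share of H3K9me2 peaks (y axis, percent) that overlap a V5 peak of the K450R line (red), a V5 peak of the WT line (blue) or a peak of endogenous EHMT1 in parental cells (green), by class of H3K9me2 peak (x axis), with 95% Wilson intervals. Shared peaks lie near 82% for both V5 lists and line-only peaks between 18.8% and 24.2%. With lists of equal length and the classes called anew, which is not drawn, line-only peaks lie at 34.5% and 41.5% in their own line. The V5 lists of the 2 lines have overlapping intervals in each class.

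V5 peaks of 1 line alone were spread over all classes of H3K9me2 peaks. Of the K450R-only H3K9me2 peaks 17 overlapped a V5 peak of the K450R line alone, 21 of the WT line alone, 22 of both lines and 148 of neither. Of the WT-only peaks 14 overlapped a V5 peak of the WT line alone, 13 of the K450R line alone, 29 of both and 122 of neither. Seen from the V5 side, 109 V5 peaks were called in the K450R line and not in the WT line, and 17 of them lay on H3K9me2 of the K450R line alone, 13 on H3K9me2 of the WT line alone, 41 on H3K9me2 of both and 38 on none. Of 121 V5 peaks of the WT line alone, 13 lay on H3K9me2 of the WT line alone, 22 on H3K9me2 of the K450R line alone, 43 on both and 43 on none. The depth-scaled ratio of H3K9me2 reads at shared peaks had a median of 1.23 where V5 was called in the K450R line alone (40 pairs), 1.20 where it was called in the WT line alone (41 pairs), 1.28 where it was called in neither (68 pairs) and 1.27 in the remaining pairs, with V5 in both. The quartiles of these 4 sets overlap.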

How the data were processed

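H3K9me2 chromatin was sequenced by the authors from 2 replicates of each line, and they deposited 1 list of peaks per group. Per the labels and the study's methods, single-end reads of 51 nt were aligned to the hg19 build before MACS2 called the peaks, and the submitters' processing notes name FastQC 0.11.9, BWA 0.7.9a, SAMtools 1.2 and MACS2 2.1.0. The deposited values of a peak are its fold enrichment (a ratio of summit to local background), its −log10 p and −log10 q (the latter the score used to rank peaks), and the offset of its summit. No column of the lists was left without a group.

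From these values the whole number of reads at the summit and the local background were solved for each peak, assuming the Poisson model of MACS2, reads extended to 100 bp and a background from the same library (an input control is not given in the sources used here). All peaks of the H3K9me2 lists had a solution. Depth was estimated as the lowest background, times 2.7 Gb, divided by the extension, for the H3K9me2 and V5 lists of the WT and K450R lines. The solving and the overlap counts were tested on simulated peaks. A ratio at shared peaks used each peak's best match by overlap. The reference was GRCh37 with GENCODE version 44 mapped to it, which has the coordinates of hg19 except for the mitochondrial genome, so that mitochondrial peaks were not annotated. Where a summit lay in several genes a coding gene was preferred.

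On chromosomes 1 to 22 and X, the peaks named were the highest by −log10 q in each class, at any position, in coding genes and within 1 kb of coding starts. Also named were the shared pairs with the highest and lowest ratio, there and over all chromosomes, the genes named by the study and members of 5 gene lists. Some results are not reported here. The members and lists were chosen with earlier results of these data known. Since 1 list stands for each group, no test was made and shares have 95% Wilson intervals. Alternatives were stricter q or fold limits, other rules of overlap, equal list lengths, chromosomes 1 to 22 and X, and a common limit of −log10 p. Python 3.11.15, numpy 2.4.6, scipy 1.17.1, pandas 2.3.3, pysam 0.24.0, numba 0.67.0 and matplotlib 3.10.9 were used.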

Additional observations from a re-analysis of the deposited data

How the results depend on the processing

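Of 123 values under the alternatives, 103 stayed within the 95% interval of the value as reported. Where peaks were cut, overlap was called anew among those kept, so a peak could pass from shared to line-only. No paired analysis was possible because the lists hold no values per replicate, and for the same reason no replicate could be left out. The share of K450R peaks with a WT counterpart rose to 78.6% at a −log10 q of at least 5, 82.8% at 10, 82.0% with peaks within 1 kb counted as shared and 81.8% with the 637 highest peaks of each list, and that of WT peaks to 80.3%, 82.1%, 85.2% and 81.5%. The share on a V5 peak of the own line moved for shared K450R peaks to 85.9% within 1 kb and 86.6% with equal lists, and for shared WT peaks to 86.9% with equal lists. For K450R-only peaks it moved to 24.7% at a minimum −log10 q of 10 and to 34.5% with equal lists, and for WT-only peaks to 31.6% and 41.5%. The share in coding genes moved for K450R-only peaks to 9.68% and 12.1% under these 2 settings, for WT-only peaks to 11.3% at a minimum −log10 q of 10, and for shared peaks to 11.0% at a fold of at least 5. The median ratio of summit reads turned from 1.26 to 0.986 with no scaling by depth, an alternative added after seeing the data, as were those without peaks lacking a unique stretch of 51 bases, without mitochondrial sequence and without pairs of 190 or more reads, which moved no value past its interval. The cause of these shifts was not tested. Line-only peaks have a median of 16 and 18 summit reads, which limits the precision of each.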
